A study of Mus musculus with 12 samples.

Results

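The highest dose of the series, 30 µg/kg TCDD, was compared with sesame oil vehicle in 6 of 12 RNA-seq libraries, 3 per group, chosen by the dose in their labels. TCDD is a persistent dioxin and a strong ligand of the aryl hydrocarbon receptor (AhR). Both groups were male C57BL/6 mice, intact animals with no engineered allele. They were gavaged every 4 days for 7 administrations from an age of 28 days, and tissue was taken at 56 days. RNA came from scraped epithelium that the labels place in the proximal ileum. The other 6 libraries, from mice given 3 or 10 µg/kg, entered the shared steps of filtering genes, scaling and estimating the spread. Those of 10 µg/kg were also compared with 30 µg/kg. The study counts mice as its replicates for this tissue, and the labels give no animal identifier to tie a library to a mouse. Scrapings hold epithelium of villus and crypt with some underlying cells, so fewer cells of a type and less RNA per cell cannot be told apart in these bulk samples.

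Depth and tissue identity were checked first. The 6 libraries held 11695887 to 22180274 counts in genes. The level of 5 enterocyte markers (Vil1, Fabp1, Fabp2, Alpi and Sis) was summed in CPM, which are counts scaled to library size. It was 10804 to 15384 CPM in vehicle and 11960 to 14931 CPM at 30 µg/kg. Sums over the markers of a cell type, here and below, use library size without TMM. Levels of single genes and sums over whole lists are scaled by TMM as well. The bile acid genes that define the ileum were nearly absent from both groups: Fabp6, the ileal bile acid binding protein, had 1 to 2 counts in vehicle and 0 to 2 counts at 30 µg/kg, while all 3 libraries of 3 µg/kg held 390 to 556. Slc10a2, the ileal bile acid transporter, had 8 to 51 counts in vehicle, 11 to 18 at 30 µg/kg and 93 to 218 at 3 µg/kg. The colon marker Car1, a carbonic anhydrase, was at 0 in both groups and at 714 to 857 counts in the libraries of 10 µg/kg. The same 3 index sequences recurred once each in every dose group, and the model was also fitted with the index as a covariate, called the index fit below. A batch running with the dose and the dose itself cannot be told apart.

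AhR is a transcription factor of the cytoplasm that moves to the nucleus when a ligand binds, pairs with Arnt and attaches to a short DNA core, GCGTG, in the regulatory regions of its target genes. Among those targets are the cytochromes P450 of family 1, which oxidise polycyclic and planar compounds, and the genes of Ahrr and Tiparp, both of which restrain the receptor in turn. In the intestine AhR is known for its part in detoxification, in the upkeep of intraepithelial lymphocytes and in the balance between crypt stem cells and their progeny.

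The promoter windows of the 4 target genes with rises described first below are given here to show where the core lies, from 250 bases before to 50 bases after the start site. They are RefSeq sequences of GRCm38.p6, written 5′ to 3′ on the strand of the gene, with each GCGTG, or CACGC where the core lies on the opposite strand, in capitals.
Cyp1a1 (chr9:57697363-57697662, plus strand): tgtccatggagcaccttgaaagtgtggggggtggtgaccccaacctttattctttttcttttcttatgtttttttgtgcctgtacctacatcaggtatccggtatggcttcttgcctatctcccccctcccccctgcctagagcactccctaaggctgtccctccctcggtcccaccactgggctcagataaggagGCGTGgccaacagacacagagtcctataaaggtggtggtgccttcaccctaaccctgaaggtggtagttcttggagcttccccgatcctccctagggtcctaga
Cyp1b1 (chr17:79715012-79715311, minus strand): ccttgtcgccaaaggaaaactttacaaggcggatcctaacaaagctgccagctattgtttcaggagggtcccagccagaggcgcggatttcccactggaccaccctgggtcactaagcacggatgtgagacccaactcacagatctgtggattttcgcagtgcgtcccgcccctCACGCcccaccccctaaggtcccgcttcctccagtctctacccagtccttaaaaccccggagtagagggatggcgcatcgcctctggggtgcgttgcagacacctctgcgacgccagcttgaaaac
Ahrr (chr13:74292282-74292581, minus strand): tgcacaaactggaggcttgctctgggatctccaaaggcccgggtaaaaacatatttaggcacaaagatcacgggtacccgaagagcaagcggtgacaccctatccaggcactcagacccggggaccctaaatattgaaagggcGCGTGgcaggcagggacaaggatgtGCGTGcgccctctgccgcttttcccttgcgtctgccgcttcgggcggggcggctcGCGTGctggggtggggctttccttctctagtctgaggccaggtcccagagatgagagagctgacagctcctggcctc
Tiparp (chr3:65528197-65528496, plus strand): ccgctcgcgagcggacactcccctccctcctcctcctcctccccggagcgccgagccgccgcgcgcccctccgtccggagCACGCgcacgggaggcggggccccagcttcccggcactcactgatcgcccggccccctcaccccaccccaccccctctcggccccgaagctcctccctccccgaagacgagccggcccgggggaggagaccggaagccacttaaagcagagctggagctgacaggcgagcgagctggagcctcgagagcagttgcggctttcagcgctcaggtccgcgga

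The window of Ahrr held 3 copies of the core, at positions -107, -82 and -27 from the start site, and those of Cyp1a1, Cyp1b1 and Tiparp held 1 each, at -54, -76 and -170. No copy lay in the windows of Cyp1a2, Nqo1 and Ugt1a6a, and that of Arnt held 1. The 5 letters are short and common. They occurred on either strand in 32.4% of all 32851 promoters of the table. The other shares count genes, and a gene counts when any of its promoters holds the core, so they do not compare with that value. The core was held by 53.9% of 10895 tested genes with a promoter in the table. Among genes called higher at 30 µg/kg, as defined below, it was 48.5% of 299 such genes, and among genes called lower 32.9% of 82. These shares describe windows of 300 bases around the start site and cover neither distal enhancers nor binding. The share among genes called higher was below that among all genes tested.

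The comparison asked which genes the highest dose raised or lowered. A gene was called when edgeR's quasi-likelihood test gave an adjusted p under 0.05 (Benjamini-Hochberg) with a change of at least 1.5-fold. Calls numbered 487 higher, which is 3.08% of 15823 genes tested, and 141 lower, which is 0.891%. Counts of called genes in the lists below are to be read against these shares. The median log2 change of all genes tested was -0.02. Between the groups, 14.2% of all genes tested did not overlap and were higher at 30 µg/kg, and 12.5% did not overlap and were lower. Leaving out 1 library gave 362 to 435 rises, whereas the number of falls depended on single libraries and is given with the falls. Of the 628 genes called, 159 share exon sequence with a gene on the other strand.

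Because short transcripts rose as a class at this dose, each gene was also placed by length. Of genes whose merged exons exceed 1000 nt, 337 of 14641 were called higher (2.3%) and 127 lower (0.867%). Merged exons overstate the length of many short messages, since 1 long rare isoform is enough, and 93 of the 337 rises had a principal transcript of 1000 nt or less. The principal transcript is the isoform that the annotation ranks first, the longest among equals, and the longest of all where none is ranked. A short message can therefore still count as long. By that measure 244 of 14123 genes over 1000 nt were called higher (1.73%) and 127 lower (0.899%). At 1000 nt or less the same counts were 241 of 1624 higher (14.8%) and 13 lower (0.8%). About as many rises came from the short genes as from the much larger class of long ones. Each library's trend over merged exon length and GC content was also removed, referred to below as the length and GC correction. Then 364 genes were called higher (2.3%) and 150 lower (0.948%). Of the 244 rises in long principal transcripts 199 were called again, and of the 127 falls 99. With that correction falls were called in 33 of 1624 short genes (2.03%) and in 116 of 14123 long ones (0.821%), so the share among short genes depended on it.

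Of the AhR list of 12 genes, 6 of the 11 tested were called higher (54.5%, against 3.08% of all genes tested) and none lower, all on transcripts over 1000 nt. Their calls were the same after the length and GC correction. Cyp1a1, which oxidises planar aromatic compounds, was at 22.7, 27.5 and 19 CPM in vehicle and at 3088, 3251 and 2608 CPM at 30 µg/kg (log2 change 7.01, SE 0.57, adjusted p = 2.31e-05). Cyp1b1 was at 1.35, 2.64 and 2.63 CPM in vehicle and at 114, 93.0 and 102 CPM at 30 µg/kg (log2 change 5.53, SE 0.22, adjusted p = 7.93e-08). In both genes every treated library lay far above every vehicle library, and vehicle replicate 1 had the lowest Cyp1b1. For Ahrr, the AhR repressor, the values were 2.48, 4.26 and 4.05 CPM against 58.1, 42.4 and 56.1 CPM (log2 change 3.85, SE 0.21, adjusted p = 6.95e-07). Tiparp, an ADP-ribosyltransferase that inactivates AhR, stood at 36.7, 38.3 and 41.5 CPM in vehicle and rose to 101, 110 and 92.6 CPM (log2 change 1.38, SE 0.14, adjusted p = 0.000106). Tiparp shares exon sequence with an antisense gene, 4931440P22Rik, and since the strand setting of the counting is not given in the sources used here, their reads cannot be told apart.

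The glucuronosyltransferases Ugt1a6a and Ugt1a6b, which conjugate phenols, were the other members called. Ugt1a6a was at 7.28, 7.64 and 6.46 CPM in vehicle and at 12.9, 20.5 and 14.6 CPM at 30 µg/kg (log2 change 1.15, SE 0.23, adjusted p = 0.0116). Without vehicle replicate 3 its call was lost (adjusted p = 0.0519). Ugt1a6b was at 2.48, 1.94 and 1.84 CPM against 6.23, 9.15 and 8.38 CPM (log2 change 1.92, SE 0.27, adjusted p = 0.00103). Neither gene overlapped between groups.

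The receptor itself and 4 further members did not pass the test. Ahr was at 20.7, 28.1 and 21.7 CPM in vehicle and at 40.5, 32.8 and 29.7 CPM at 30 µg/kg, without overlap, but its log2 change of 0.55 (SE 0.16) had an adjusted p of 0.0723. Arnt, its partner, had a log2 change of -0.06 (SE 0.08, adjusted p = 0.728). Nqo1, a quinone reductase driven by both AhR and NRF2, had a log2 change of 0.47 (SE 0.16, adjusted p = 0.12). Xdh, xanthine dehydrogenase, differed by 0.30 on the log2 scale (SE 0.20, adjusted p = 0.409). Cyp1a2, the liver's main member of the family, was at 0.788 to 2.31 CPM in vehicle and at 1.38 to 1.81 CPM at 30 µg/kg, with overlapping groups. Aldh3a1, an aldehyde dehydrogenase, had at most 2 counts in any of the 6 libraries and was not tested.

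**Figure D1:**
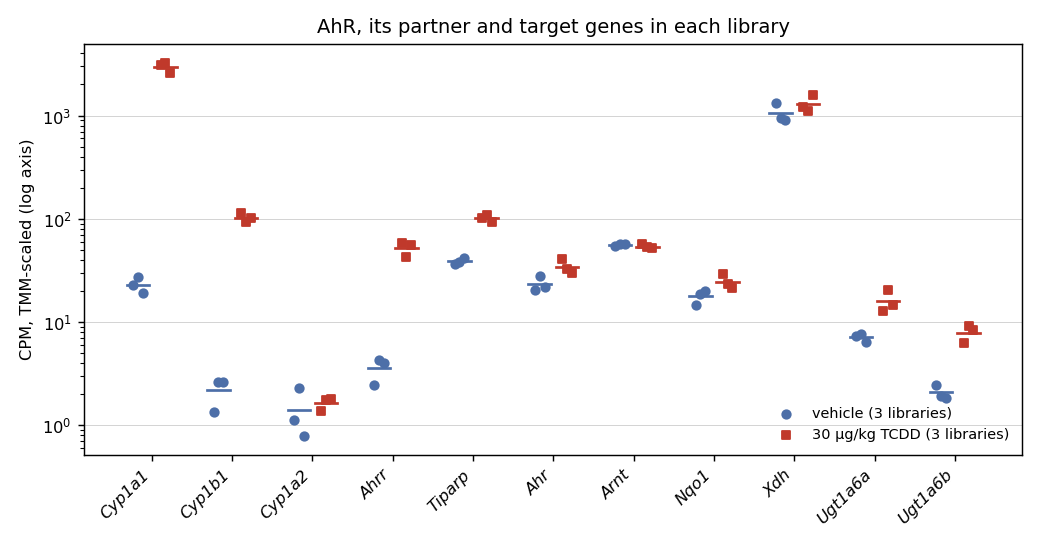
Level of the 11 tested AhR genes in each library, in TMM-scaled CPM on a log axis; circles are the 3 vehicle libraries, squares the 3 libraries of 30 µg/kg and lines the group means. Cyp1a1, Cyp1b1 and Ahrr show the widest gaps between groups, Cyp1a2 and Xdh overlap, and Arnt lies between 51.7 and 57.6 CPM in all 6 libraries.

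Drug-metabolising genes beyond the AhR list were split. Of 23 tested genes of phase II conjugation 3 were called higher (13%, against 3.08% of all genes tested) and none lower. Their median log2 change of -0.03 was close to that of all genes tested. Ugt1a7c rose from 77.3, 78.9 and 90.8 CPM to 298, 310 and 281 CPM (log2 change 1.85, SE 0.13, adjusted p = 4.77e-06), and stood apart from its list. Gsta4, a glutathione transferase for lipid aldehydes, was at 8.91, 8.61 and 14.6 CPM in vehicle and at 23.4, 31.7 and 21 CPM at 30 µg/kg (log2 change 1.24, SE 0.21, adjusted p = 0.004). Its principal transcript has 977 nt. Gstm2 had a log2 change of 0.71 (SE 0.18, adjusted p = 0.0342) and lost its call without vehicle replicate 2 or 3 or any library of 30 µg/kg (adjusted p 0.0664 to 0.12), in the index fit and after the length and GC correction (log2 change 0.57, adjusted p = 0.0683). Another 3 genes of the Ugt1a cluster on chromosome 1, named after their values were seen, were also called higher. Their log2 changes were 2.30 for Ugt1a9 (SE 0.39), 1.74 for Ugt1a2 (SE 0.32) and 1.53 for Ugt1a5 (SE 0.35), and Ugt1a5 lost its call without 30 µg/kg replicate 2 or 3 (adjusted p 0.0755 and 0.0767). All Ugt1a genes share their last exons, so the division of reads among them is uncertain.

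Among 17 tested cytochromes P450 of families 2, 3 and 4, 3 were called higher and 3 lower, each 17.6%. The shares of all genes tested were 3.08% and 0.891%. All these P450 calls were on long transcripts and were made again after the length and GC correction. Cyp2d26 fell from 217, 194 and 184 CPM to 90.2, 111 and 88.3 CPM (log2 change -1.04, SE 0.18, adjusted p = 0.00383). Cyp4f16 fell from 66.4, 70.7 and 83.2 CPM to 48.4, 39.4 and 43.4 CPM (log2 change -0.75, SE 0.12, adjusted p = 0.00367). Both falls were called whichever library was left out. Cyp3a25, named after its values were seen, had a log2 change of -0.79 (SE 0.20, adjusted p = 0.0378) that was lost on leaving out any 1 of the 6 libraries (adjusted p 0.0561 to 0.13) and in the index fit. The rises were Cyp2j9, with a log2 change of 1.66 (SE 0.38), Cyp2j6, with 0.91 (SE 0.21), and Cyp2s1, with 0.73 (SE 0.16). Cyp2j9 and Cyp2j6 lost their calls without vehicle replicate 1 or 3 or 30 µg/kg replicate 1 or 2 (adjusted p 0.0568 to 0.0947), and Cyp2s1 without vehicle replicate 1 or 30 µg/kg replicate 2 or 3 (adjusted p 0.0506 to 0.061). None of 16 genes of the NRF2 and glutathione list was called by edgeR, DESeq2 or limma-voom. Their median log2 change was -0.17, and 3 had an unadjusted p under 0.05.

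The other large rises in long genes had no single theme. Ildr1, a protein of the corners where 3 epithelial cells meet (ENSMUSG00000022900, chromosome 16, 36693978 to 36726804), was at 4.01, 3.29 and 2.15 CPM in vehicle and at 38.2, 32.7 and 44.0 CPM at 30 µg/kg (log2 change 3.61, SE 0.20, adjusted p = 6.95e-07). Dgkh, a diacylglycerol kinase (ENSMUSG00000034731, chromosome 14, 78558750 to 78732776), went from 3.44, 5.14 and 6.57 CPM to 42.1, 48.0 and 34.8 CPM (log2 change 3.04, SE 0.26, adjusted p = 2.8e-05). Cuedc1 (ENSMUSG00000018378, chromosome 11, 88098058 to 88194140), whose CUE domain binds ubiquitin, went from 3.89, 4.07 and 5.41 CPM to 18.9, 26.8 and 20.7 CPM (log2 change 2.31, SE 0.17, adjusted p = 1.21e-05). In these 3 genes the lowest treated library was several times above the highest vehicle library. The growth factor Tgfb2 had a log2 change of 2.72 (SE 0.52, adjusted p = 0.00876) at 0.231 to 1.24 CPM in vehicle and 4.24 to 6.84 CPM at 30 µg/kg. Colca2 had a log2 change of 2.32 (SE 0.35, adjusted p = 0.00181). Antisense genes overlap the exons of both, Gm29491 that of Tgfb2 and 2010007H06Rik that of Colca2.

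Metallothioneins, small proteins that bind zinc and copper, rose together. Both messages are short, with principal transcripts of 549 nt (Mt1) and 511 nt (Mt2), although the merged exons of Mt1 span 1246 nt. Mt1 was at 173, 155 and 209 CPM in vehicle and at 899, 748 and 674 CPM at 30 µg/kg (log2 change 2.11, SE 0.27, adjusted p = 0.00049). Mt2 was at 63.1, 45.2 and 51.3 CPM against 352, 328 and 265 CPM (log2 change 2.57, SE 0.30, adjusted p = 0.0003). After the length and GC correction the changes were 1.92 and 2.29, and both genes stayed called. An antisense gene, Gm45774, overlaps the exons of Mt2.

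A pair of genes known from skeletal muscle was among the largest rises. Acta1, the skeletal alpha-actin (ENSMUSG00000031972, chromosome 8, 123891769 to 123894751), was at 5.25, 2.31 and 2.00 CPM in vehicle and at 121, 197 and 77.0 CPM at 30 µg/kg (log2 change 5.38, SE 0.43, adjusted p = 1.98e-05). Apobec2, a deaminase relative found in muscle, was at 0.324 to 0.903 CPM against 10.7, 2.04 and 10.2 CPM (log2 change 3.88, SE 0.65, adjusted p = 0.00356). The summed level of 8 skeletal muscle markers, of which 1 had enough counts to be tested, was 0.712 to 1.34 CPM in vehicle and 0.77 to 1.16 CPM at 30 µg/kg, with Myh1, Myh4 and Mb at 0 in all 6 libraries. Of the wider list of 22 muscle genes 6 were tested, and the third one called was Eno3, a muscle enolase, with a log2 change of 0.78 (SE 0.16, adjusted p = 0.0143). Eno3 lost its call without vehicle replicate 2 or 30 µg/kg replicate 1 (adjusted p 0.0569 and 0.064). Other actins nearly match Acta1 in sequence, so its reads may be shared with them.

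Short messages rose across many functions. Among protein-coding genes with a principal transcript of 301 to 600 nt, 47.3% of 169 were called higher and their median log2 change was 0.78. The share was 17.3% of 602 genes at 601 to 1000 nt (median 0.31), 3.6% at 1001 to 2000 nt (median 0.09) and 0.89% above 8000 nt (median -0.09). Each treated library showed the gradient on its own, with medians of 0.77, 0.67 and 0.71 in the shortest class, and the vehicle libraries lay between -0.05 and 0.04. The highest library of another group in that class was 10 µg/kg replicate 3, at 0.24. Outside the lists of ribosomal proteins, respiratory chain, histones and Paneth cells, 28.7% of 94 genes of 301 to 600 nt were still called higher, with a median of 0.48. After the length and GC correction the medians of all protein-coding genes were 0.57 at 301 to 600 nt and 0.16 at 601 to 1000 nt. The correction thus lowered the rise of short messages but did not remove it, and a call kept after it can still belong to that class. Of genes that code for no protein, 12.2% of 230 were called higher at up to 300 nt (median 0.09), 5.52% of 326 at 301 to 600 nt (median -0.07) and 3.46% of 289 at 601 to 1000 nt (median -0.01), against 3.08% of all genes tested. After the correction these medians were -0.15, -0.31 and -0.22.

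Features of the libraries moved with this class. Genes with merged exons of 1000 nt or less held 2.87 to 3.12% of counts in vehicle and 4.34 to 4.72% at 30 µg/kg. Alignments outside any gene were 29.36 to 29.41% of all entries in vehicle and 25 to 25.42% at 30 µg/kg. The part of RNA integrity or library preparation in the rise of short messages was not tested, and no integrity value was used here.

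**Figure D2:**
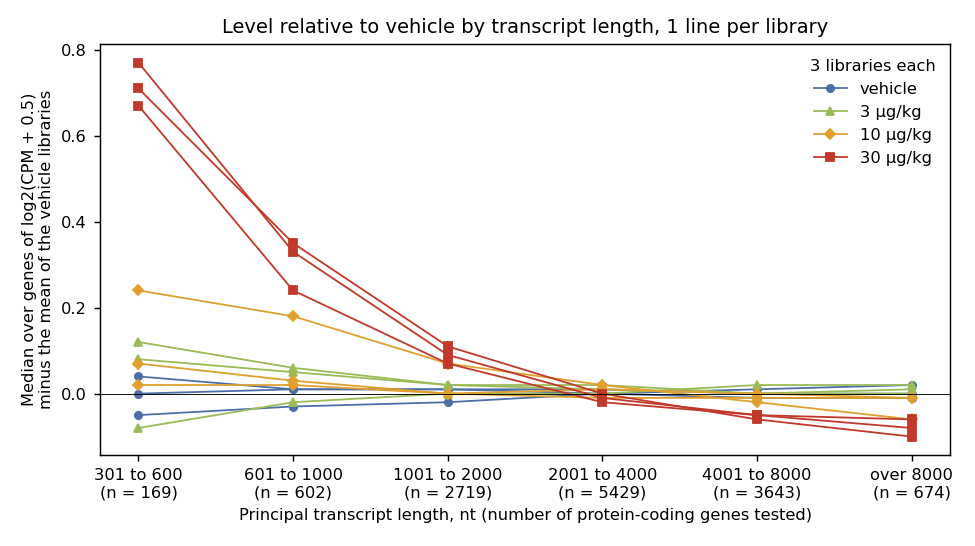
Median level of protein-coding genes relative to vehicle, by length class of the principal transcript; each line is 1 of 12 libraries and the y axis is log2(CPM + 0.5) minus the mean of the vehicle libraries. The 3 libraries of 30 µg/kg lie at 0.67 to 0.77 in the shortest class and fall to about 0 at 2001 to 4000 nt.

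Cytosolic ribosomal proteins, the protein part of the translating ribosome, were the largest group among the short rises. Of 83 tested, 65 were called higher (78.3%) and none lower, with a median log2 change of 0.82. Rpl41 (ENSMUSG00000093674, chromosome 10, 128548114 to 128549305) was at 98.7, 98.1 and 90.6 CPM in vehicle and at 328, 328 and 312 CPM at 30 µg/kg (log2 change 1.75, SE 0.09, adjusted p = 6.95e-07). Rps24 rose from 69.4, 67.0 and 72.3 CPM to 202, 201 and 193 CPM, and Rps28 had a log2 change of 1.69 (SE 0.11, adjusted p = 3.96e-06). The libraries within each group differed little in these genes. On principal transcripts over 1000 nt 20 of 30 ribosomal protein genes were called, with a median of 0.73. Among them was Rps24, placed there by a principal transcript of 1613 nt. With merged exons of 6256 nt, its log2 change was 1.51 before the length and GC correction and 1.57 after it. After the length and GC correction 57 of 83 were called, so most of these calls persisted. That correction did not remove the rise of short messages, as given above.

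The nuclear-encoded respiratory chain did not persist in the same way. Of 80 genes 21 were called higher, with a median log2 change of 0.38, but only 2 of 34 with a principal transcript over 1000 nt, whose median was 0.14. The correction left 8 of 80 called. Ndufa3, a subunit of complex I, went from 52.3, 52.7 and 51.6 CPM to 100, 89.3 and 94.8 CPM (log2 change 0.86, SE 0.09, adjusted p = 0.000186). Cox7b, a subunit of cytochrome c oxidase, had a log2 change of 0.87 (SE 0.11, adjusted p = 0.000389). Of 9 messages of the mitochondrial genome 1 was called, mt-Atp8, with a log2 change of 1.01 (SE 0.11, adjusted p = 0.000195).

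Replication-dependent histones, which lack poly(A) tails and package new DNA, were called higher in 36 of 52 genes (69.2%), with a median log2 change of 1.28. On principal transcripts over 1000 nt 8 of 14 were called (median 0.84), and 28 of 52 after the length and GC correction. Leaving out 1 library gave 23 to 30 calls, the fewest without vehicle replicate 3 and 24 without 30 µg/kg replicate 1. Hist1h4h was at 35.2, 27.6 and 25.5 CPM in vehicle and at 84.3, 85.4 and 91.2 CPM at 30 µg/kg (log2 change 1.56, SE 0.18, adjusted p = 0.000278). Hist1h4d had a log2 change of 1.36 (SE 0.15, adjusted p = 0.000232), and Hist1h2ah, among the largest short rises, 2.77 (SE 0.49, adjusted p = 0.00475). Histone genes are near copies of each other, and the reads of a single one are uncertain. The genes of DNA replication and mitosis were weaker. Of 40 cell cycle genes 1 was called (2.5%, against 3.08% of all genes tested), although their median was 0.51 and 18 more had an unadjusted p under 0.05.

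Small RNA genes were called higher in 32 of 187 tested (17.1%) and lower in 2 (1.07%), and in 15 and 5 after the length and GC correction. Over all genes tested the shares were 3.08% and 0.891%. The rises called numbered 17 and 18 without vehicle replicates 2 and 3, and 19 and 20 without 30 µg/kg replicates 2 and 3. Rpph1, the RNA of RNase P (ENSMUSG00000092837, chromosome 14, 50807449 to 50807767), was at 4130, 3753 and 3875 CPM in vehicle and at 9492, 11742 and 10069 CPM at 30 µg/kg (log2 change 1.41, SE 0.14, adjusted p = 0.00012). At 10 µg/kg it was at 1914 CPM ± 60.9 (SD, n = 3), below vehicle, so the levels did not follow dose. Rmrp, the RNA of the related RNase MRP, had a log2 change of 1.03 (SE 0.12, adjusted p = 0.000271). The rises with the smallest adjusted p among small nucleolar RNA genes were a pair of neighbours on chromosome 9, whose gene sequences are shown because they lie near each other but differ (GRCm38).
Gm24339 (chr9:15326464-15326539, minus strand): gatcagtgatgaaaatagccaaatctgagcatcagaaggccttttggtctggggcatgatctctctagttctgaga
Gm24357 (chr9:15315522-15315595, plus strand): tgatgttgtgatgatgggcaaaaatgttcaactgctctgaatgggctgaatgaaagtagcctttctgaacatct
Gm24339 was at 8.01, 6.34 and 6.99 CPM in vehicle and at 23, 22 and 29.3 CPM at 30 µg/kg (log2 change 1.80, SE 0.16, adjusted p = 3.85e-05). Gm24357 was at 5.08, 5.51 and 6.57 CPM against 22.2, 19.5 and 20.2 CPM (log2 change 1.85, SE 0.22, adjusted p = 0.000296). Genes of this kind often lie inside host genes, and here Rpph1 overlaps Ccnb1ip1 and Gm24357 overlaps Taf1d, so part of their reads may come from the host.

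Among the largest rises, 3 belong to predicted genes that resemble repeats. Gm10719 had a log2 change of 2.33 (SE 0.51), Gm10720 of 2.33 (SE 0.60) and Gm10800 of 2.58 (SE 0.62). In Gm10800 the treated libraries were at 205, 1288 and 371 CPM, so replicate 2 lay apart. Without 30 µg/kg replicate 2 or vehicle replicate 2 none of the 3 was called. Gm10719 and Gm10720 also lost their calls without 30 µg/kg replicate 1, and Gm10720 and Gm10800 without vehicle replicate 1, as did Gm10800 without vehicle replicate 3 (adjusted p 0.0506 to 0.133 over all these). None of the 3 was called in the index fit, and Gm10720 was not called on the 6 libraries alone. An antisense gene, Gm26870, overlaps the exons of Gm10719.

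Paneth cells, which sit at the crypt base and secrete defensins and lysozyme, gave the clearest change of a cell-type list. Of 18 genes tested 13 were called higher (72.2%, against 3.08% of all genes tested) and none lower, with a median log2 change of 1.54. Most are short, but 4 of 5 with a principal transcript over 1000 nt were called, and 12 of 18 after the length and GC correction. Lyz1, lysozyme, was at 354, 470 and 309 CPM in vehicle and at 1014, 1385 and 1446 CPM at 30 µg/kg (log2 change 1.76, SE 0.29, adjusted p = 0.00326). Its principal transcript of 1263 nt is over the limit. Ang4, an antimicrobial ribonuclease with a principal transcript of 709 nt, rose from 34.6, 46.3 and 28.3 CPM to 159, 195 and 194 CPM (log2 change 2.33, SE 0.28, adjusted p = 0.000362). Every treated library exceeded every vehicle library in both genes, and vehicle replicate 2 was the highest control.

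Among the defensins Defa23 had the largest change, from 6.26, 6.34 and 4.52 CPM to 46.9, 57.2 and 52.6 CPM (log2 change 3.19, SE 0.33, adjusted p = 0.00012). Defa22 had a log2 change of 2.06 (SE 0.30, adjusted p = 0.00133) and Gm15293, a predicted gene among the largest short rises, one of 2.62 (SE 0.29, adjusted p = 0.000195). Alpha-defensin genes are near-identical copies, so single members are uncertain. The pentraxin Mptx2 had a log2 change of 2.06 (SE 0.32, adjusted p = 0.00251). Long members rose with them. Mmp7, the protease that activates defensins, was at 22.1, 28.6 and 18.6 CPM in vehicle and at 51.4, 56.0 and 63.8 CPM at 30 µg/kg (log2 change 1.30, SE 0.27, adjusted p = 0.0142), a call lost without vehicle replicate 3 or 30 µg/kg replicate 3 (adjusted p 0.0527 and 0.0694). The lectin Itln1 and the lipase Pnliprp2, named after their values were seen, had log2 changes of 1.37 (SE 0.26) and 1.54 (SE 0.25).

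Goblet cells, which secrete the mucus layer, showed a smaller change in the same direction. Of 20 genes 9 were called higher (45%, against 3.08% of all genes tested) and none lower, with a median log2 change of 0.54. With a long principal transcript 4 of 13 were called higher. The correction left 8 of 20 called. Tff3, a trefoil peptide of mucus, was at 368, 390 and 284 CPM in vehicle and at 619, 662 and 662 CPM at 30 µg/kg (log2 change 0.90, SE 0.13, adjusted p = 0.00166). Muc2, the main gel-forming mucin and a long message, was at 3824, 4124 and 3158 CPM against 4272, 4495 and 4565 CPM, and its log2 change of 0.26 (SE 0.13) did not pass (adjusted p = 0.28). Spink4, Klk1 and Agr2, the isomerase that folds mucins, had log2 changes of 0.99 (SE 0.14), 0.94 (SE 0.13) and 0.82 (SE 0.12). Transcription factors of the lineage on long transcripts were also called. Creb3l1 rose from 18.2, 18.5 and 17.1 CPM to 31, 29.6 and 30.2 CPM (log2 change 0.76, SE 0.11, adjusted p = 0.0017), and Atoh1, which commits cells to the secretory fate and was named after its values were seen, had a log2 change of 0.71 (SE 0.13, adjusted p = 0.00513).

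Enteroendocrine cells, the hormone-secreting cells of the epithelium, changed by a similar amount. Of 30 genes 8 were called higher (26.7%, against 3.08% of all genes tested) and none lower, with a median log2 change of 0.46. Of 23 with a long principal transcript 6 were called, and 7 of 30 after the length and GC correction. Without vehicle replicate 1 or 3 or 30 µg/kg replicate 3 the list had 5 calls. Chgb, a granule protein, was at 65.2, 62.3 and 58.3 CPM in vehicle and at 94.9, 110 and 108 CPM at 30 µg/kg (log2 change 0.75, SE 0.10, adjusted p = 0.000759). Chga had a log2 change of 0.65 (SE 0.11, adjusted p = 0.00391), which was 0.58 and so under 1.5-fold after the length and GC correction. Of the hormones, cholecystokinin (Cck) had a log2 change of 1.09 (SE 0.17, adjusted p = 0.0019), secretin (Sct) of 0.94 (SE 0.12, adjusted p = 0.00047) and proglucagon (Gcg) of 0.74 (SE 0.15, adjusted p = 0.0101). The principal transcripts of Cck and Sct have 783 and 507 nt, and that of Gcg has 1088 nt. Tph1, which makes serotonin, and the transcription factor Insm1, both named after their values were seen, had log2 changes of 0.96 (SE 0.21) and 0.95 (SE 0.22). Both lost their calls without vehicle replicate 1 or 3 or 30 µg/kg replicate 3, and Insm1 also without vehicle replicate 2 (adjusted p 0.0548 to 0.114 over both genes). Insm1 was also not called on the 6 libraries alone.

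**Figure D3:**
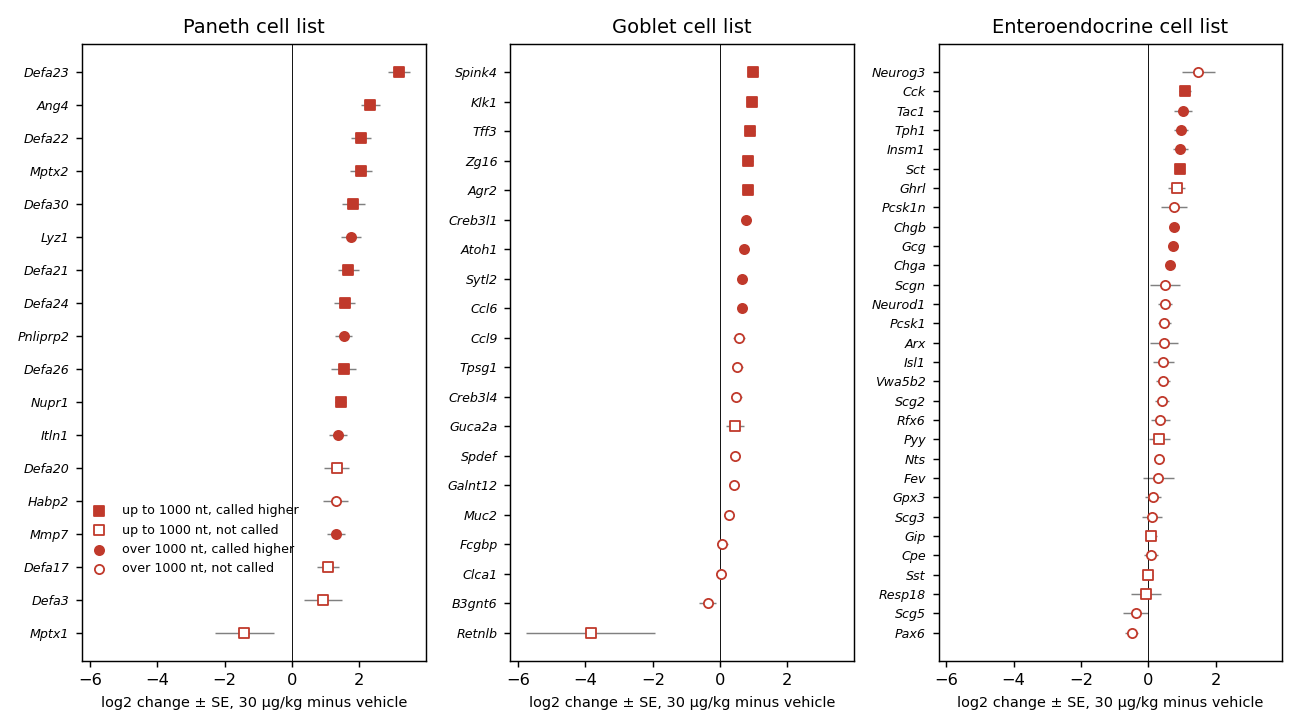
Log2 change ± SE of every tested gene of the Paneth, goblet and enteroendocrine cell lists, 30 µg/kg minus vehicle; squares have a principal transcript of up to 1000 nt, circles a longer one, and filled symbols were called higher. Calls numbered 13 of 18, 9 of 20 and 8 of 30, and those on circles persist in the long class.

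Summed over the 6 Paneth markers the level was 640 to 977 CPM in vehicle and 2045 to 2848 CPM at 30 µg/kg, and over 7 enteroendocrine markers 128 to 140 CPM against 212 to 251 CPM. For 7 goblet markers it was 12347 to 16256 CPM against 16167 to 18051 CPM, so the groups overlapped there. Tuft cells, the chemosensory cells, had no gene called of 17 tested by edgeR, DESeq2 or limma-voom. Their median was 0.12, and 2 had an unadjusted p under 0.05.

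A few long genes related to secretory or crypt cells were named after their values were seen. Ccl28, a mucosal chemokine (ENSMUSG00000074715, chromosome 13, 119623819 to 119654359), was at 38.4, 33.9 and 35.1 CPM in vehicle and at 65.6, 82.6 and 93.5 CPM at 30 µg/kg (log2 change 1.17, SE 0.13, adjusted p = 0.000237). Kit, a receptor tyrosine kinase, had a log2 change of 1.12 (SE 0.17, adjusted p = 0.00211). By the fixed rule, Foxa3, a transcription factor of endoderm and goblet cells, had a log2 change of 0.68 (SE 0.11, adjusted p = 0.00341), and the tight junction gene Cldn3 one of 0.79 (SE 0.11, adjusted p = 0.000788). After the length and GC correction Cldn3 was at 0.57 and Foxa3 at 0.58, both under 1.5-fold. An antisense gene, Wbscr25, overlaps the exons of Cldn3.

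Stem cell and Wnt genes had 2 of 17 called higher (11.8%, against 3.08% of all genes tested), with a median of 0.26. Lgr5, the marker of crypt base stem cells, was at 3.50, 4.77 and 3.78 CPM in vehicle and at 2.96, 2.40 and 2.79 CPM at 30 µg/kg (log2 change -0.56, SE 0.32, adjusted p = 0.337). Olfm4, another gene of that cell, had a log2 change of 0.86 (SE 0.33, adjusted p = 0.15). Wnt3, a signal made by Paneth cells, had one of 1.22 (SE 0.27, adjusted p = 0.0206), lost without vehicle replicate 3 or 30 µg/kg replicate 2 or 3 (adjusted p 0.0604 to 0.0695) and on the 6 libraries alone. Cdca7 had 0.74 (SE 0.17, adjusted p = 0.0203), lost without vehicle replicate 2 or 3 or any library of 30 µg/kg (adjusted p 0.0534 to 0.0779). In the cell cycle list Mki67, a marker of dividing cells, went from 114, 117 and 137 CPM to 200, 149 and 186 CPM (log2 change 0.54, SE 0.23, adjusted p = 0.196). Ube2c was the member called (log2 change 1.03, SE 0.27, adjusted p = 0.0406), and lost its call without any vehicle library or 30 µg/kg replicate 1 or 3 (adjusted p 0.0915 to 0.135). It was also lost in the index fit and after the length and GC correction (log2 change 0.96, adjusted p = 0.0632), which left none of the 40 cell cycle genes called. An antisense gene, Tnnc2, overlaps the exons of Ube2c.

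Chaperones and other genes of the endoplasmic reticulum had 4 of 30 called higher (13.3%, against 3.08% of all genes tested), with a median of 0.22. After the length and GC correction 1 of 30 was called. Sec61b, a short subunit of the translocation channel, had a log2 change of 1.07 (SE 0.10, adjusted p = 5.11e-05). Manf, Sdf2l1 and Calr had log2 changes of 0.63 (SE 0.09), 0.70 (SE 0.11) and 0.59 (SE 0.11), all just over 1.5-fold, and were at 0.50 to 0.58 after that correction. Manf and Calr also fell under 1.5-fold without 30 µg/kg replicate 1, and Calr without vehicle replicate 1 and with upper-quartile scaling. Antisense genes, 4930524O07Rik and Dcaf1, overlap the exons of Manf. Hspa5, the main chaperone of the compartment, had a log2 change of 0.42 (SE 0.11, adjusted p = 0.0451), under the fold limit.

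The falls were fewer and mostly outside the lists, with 111 of the 127 falls in long principal transcripts in no list. Their number rested on single libraries. It was 220 without vehicle replicate 1, and 67 and 76 without vehicle replicates 2 and 3. Without 30 µg/kg replicates 1, 2 and 3 it was 75, 79 and 75, against 141 in all. Falls in genes whose merged exons exceed 1000 nt behaved alike, with 58 to 204 calls.

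Falls were called in an alkaline phosphatase and in several transport genes. Akp3, an intestinal alkaline phosphatase of the brush border (ENSMUSG00000036500, chromosome 1, 87124973 to 87127912), was at 23.9, 25.6 and 19.3 CPM in vehicle and at 1.58, 1.42 and 2.19 CPM at 30 µg/kg (log2 change -3.70, SE 0.82, adjusted p = 0.0193). The groups were far apart, but the call was lost without vehicle replicate 2 or any library of 30 µg/kg (adjusted p 0.0578 to 0.0798). Alpi, the alkaline phosphatase of the same tissue with far higher counts, was at 921, 971 and 855 CPM against 999, 1015 and 742 CPM, and its log2 change of 0.01 (SE 0.20) changed sign between settings. Cftr, the chloride channel of crypt and villus (ENSMUSG00000041301, chromosome 6, 18170687 to 18322768), fell from 157, 166 and 169 CPM to 92.7, 75.5 and 80.4 CPM (log2 change -0.98, SE 0.11, adjusted p = 0.000161). That call held whichever library was left out and after the length and GC correction, though an antisense gene, Gm15592, overlaps it. Slc13a1, a sulfate transporter, had a log2 change of -2.02 (SE 0.55, adjusted p = 0.0488). It was not called after the length and GC correction (adjusted p = 0.0692), with genes over 1000 nt fitted alone, nor without vehicle replicate 2 or 3 or any library of 30 µg/kg (adjusted p 0.064 to 0.153). These 3 were the members called of 26 genes of alkaline phosphatase and ion transport (11.5%, against 0.891% of all genes tested called lower). That list had a median of -0.02.

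Slc5a8, a sodium-coupled transporter of short-chain fatty acids (ENSMUSG00000020062, chromosome 10, 88885992 to 88929515), was at 299, 183 and 136 CPM in vehicle and at 66.1, 62.5 and 93.3 CPM at 30 µg/kg (log2 change -1.48, SE 0.29, adjusted p = 0.00898). Abcc6, an ABC transporter, had a log2 change of -1.29 (SE 0.30, adjusted p = 0.0244), lost without vehicle replicate 2 or 3 or 30 µg/kg replicate 1 or 3 (adjusted p 0.0707 to 0.0979). Slc40a1, ferroportin, which exports iron, went from 8.46, 8.61 and 6.67 CPM to 4.65, 4.09 and 2.68 CPM (log2 change -1.06, SE 0.22, adjusted p = 0.0134), a call lost without vehicle replicate 2 or 30 µg/kg replicate 3 (adjusted p 0.0515 and 0.0588). The other member of the 13 iron genes called was Alas1, the first enzyme of heme synthesis, which rose from 113, 102 and 119 CPM to 198, 178 and 186 CPM (log2 change 0.75, SE 0.12, adjusted p = 0.00223). The 1 call in each direction was 7.69% of that list, against 3.08% higher and 0.891% lower of all genes tested.

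The other large falls were in genes of varied roles. Zyg11a, a gene of a ubiquitin ligase family (ENSMUSG00000034645, chromosome 4, 108181738 to 108218048), was at 6.94, 6.85 and 5.88 CPM in vehicle and at 2.20, 2.49 and 2.63 CPM at 30 µg/kg (log2 change -1.43, SE 0.17, adjusted p = 0.000389). Prr5l, a partner of the kinase complex mTORC2, was at 5.19, 8.93 and 7.25 CPM against 1.99, 1.69 and 2.96 CPM (log2 change -1.67, SE 0.30, adjusted p = 0.00587). Its exons overlap those of an antisense gene, Gm13905. Arhgap29 had a log2 change of -1.58 (SE 0.27, adjusted p = 0.00372). All 3 were called whichever library was left out. The kinase Sgk3 and the receptor kinase Ros1 had log2 changes of -1.34 (SE 0.34) and -1.26 (SE 0.31), and both lost their calls without vehicle replicate 2 or 3 or any library of 30 µg/kg (adjusted p 0.0589 to 0.126). Sgk3 was not called after the length and GC correction (log2 change -1.21, adjusted p = 0.0616), and Ros1 was not called by limma-voom, in the index fit or on the 6 libraries alone. The retinol dehydrogenase Rdh16 had a log2 change of -1.18 (SE 0.26, adjusted p = 0.0179), lost without vehicle replicate 1 or 30 µg/kg replicate 1 or 3 (adjusted p 0.0536 to 0.0832). Of 18 genes of vitamin A metabolism 1 was called, Aldh1a1, which makes retinoic acid, with a log2 change of -0.59 (SE 0.12). It fell under 1.5-fold after that correction, at -0.57, with genes over 1000 nt fitted alone, and without vehicle replicate 3 or 30 µg/kg replicate 1. Cldn23, a claudin, had a log2 change of -0.65 (SE 0.14, adjusted p = 0.0197), lost without vehicle replicate 2 or 3 or 30 µg/kg replicate 1 or 2 (adjusted p 0.0517 to 0.0824).

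Cobalamin (vitamin B12) uptake is one part of the study, which centres on propionyl-CoA metabolism, and the ileum takes the vitamin up through cubilin and amnionless. The paper reports Cubn as repressed in the proximal ileum, by its own criterion of fold change and posterior probability. None of the 5 absorption genes tested was called by edgeR, and 1, Cubn, had an unadjusted p under 0.05. Cubn (ENSMUSG00000026726, chromosome 2, 13276338 to 13491813) was at 1109, 1452 and 1185 CPM in vehicle and at 385, 341 and 158 CPM at 30 µg/kg. The groups did not overlap, and the log2 change was -2.08 (SE 0.60, adjusted p = 0.0622). DESeq2 did not call it (adjusted p = 0.0521), while limma-voom did, as did edgeR on the 6 libraries alone (adjusted p = 0.00543). Of 12 alternative settings 5 called Cubn, while leaving out any 1 library gave no call. Its adjusted p ran from 0.000287 to 0.18 over all of these. At 10 µg/kg it was at 371 CPM ± 292 (SD, n = 3). The median of the 5 genes was -0.14. Of 9 trafficking genes 1 was called, Mmab, the enzyme that makes adenosylcobalamin, with a log2 change of 0.83 (SE 0.18, adjusted p = 0.017). Its call was lost without any vehicle library or 30 µg/kg replicate 1 (adjusted p 0.05 to 0.0765). None of 14 genes of propionyl-CoA breakdown was called by edgeR, DESeq2 or limma-voom, with a median of 0.01 and 2 at an unadjusted p under 0.05.

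**Figure D4:**
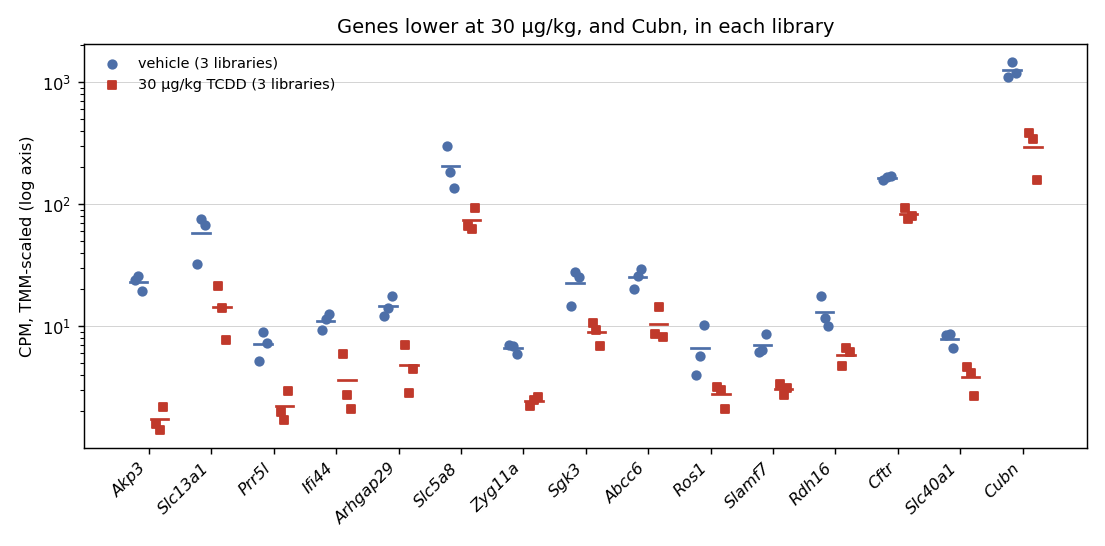
Level in each library of the 12 largest falls in long protein-coding genes, with Cftr, Slc40a1 and Cubn, in TMM-scaled CPM on a log axis; circles are vehicle, squares 30 µg/kg and lines group means. No gene shown overlaps between groups, and the vehicle libraries of Slc13a1 and Ros1 are widely spread.

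Immune genes moved in both directions. Of 35 interferon-stimulated genes 3 were called lower (8.57%, against 0.891% of all genes tested) and none higher. Their median log2 change was -0.37, against -0.02 for all genes tested. Ifi44 was at 9.25, 11.5 and 12.5 CPM in vehicle and at 5.92, 2.75 and 2.08 CPM at 30 µg/kg (log2 change -1.60, SE 0.34, adjusted p = 0.017). Ifit1, which binds foreign RNA, and Oas1g had log2 changes of -0.74 (SE 0.19) and -1.01 (SE 0.24). All 3 lost their calls without vehicle replicate 2 or 3 or 30 µg/kg replicate 2 or 3, and Ifit1 also without vehicle replicate 1 (adjusted p 0.057 to 0.126 over the 3 genes). Oas1g was also not called in the index fit.

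Some leukocyte genes named after their values were seen were also lower, while none of the 23 T cell genes tested was called lower. Ptprc, the pan-leukocyte CD45, was at 55.2, 72.8 and 93.6 CPM in vehicle and at 42.9, 42.9 and 49.1 CPM at 30 µg/kg (log2 change -0.71, SE 0.16, adjusted p = 0.0229). The integrin Itgal had a log2 change of -1.0 (SE 0.26), lymphotoxin beta (Ltb) of -1.91 (SE 0.49) and Ms4a4b, a gene of T cells, of -1.86 (SE 0.45). All 4 lost their calls without vehicle replicate 2 or 3 or 30 µg/kg replicate 1 or 2, and Itgal and Ms4a4b also without 30 µg/kg replicate 3 (adjusted p 0.0519 to 0.146 over the 4 genes). None of the 4 was called in the index fit, Ptprc and Ltb were not called on the 6 libraries alone, and limma-voom did not call Ltb. After the length and GC correction Ptprc was at -0.56, under 1.5-fold. Slamf7, a receptor of lymphocytes named by the rule, fell by 1.19 on the log2 scale (SE 0.18, adjusted p = 0.00218) whichever library was left out, and shares exon sequence with the antisense gene Gm37787.

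B cell genes were uneven among the vehicle libraries. The summed level of 6 B and plasma cell markers was 106, 174 and 292 CPM in the vehicle libraries and 125, 101 and 109 CPM at 30 µg/kg, so vehicle replicate 1 lay within the treated range. Summed over the whole list the levels overlapped too, at 1396 to 2684 CPM in vehicle and 1685 to 1995 CPM at 30 µg/kg. None of 20 genes of that list was called by edgeR or limma-voom, while DESeq2 called 5 lower, 13 had an unadjusted p under 0.05 and the median was -2.03. Without vehicle replicate 1 edgeR called 11 of them lower. Cd79a, part of the B cell receptor, had 13, 120 and 222 counts in vehicle and 32, 10 and 30 counts at 30 µg/kg. How far lymphoid tissue in the scrapings bears on the falls of leukocyte genes was not tested.

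Immunoglobulin segments had 1 called higher (0.719%) and 6 lower (4.32%) of 139, against 3.08% and 0.891% of all genes tested. Ighv1-19 had a log2 change of -2.30 (SE 0.36, adjusted p = 0.00257), Ighg2b of -3.85 (SE 0.93, adjusted p = 0.0307) and Ighv1-64 of 2.85 (SE 0.69, adjusted p = 0.0298). Ighg2b and Ighv1-64 lost their calls without vehicle replicate 2 or 3 or 30 µg/kg replicate 2 or 3, Ighg2b also without 30 µg/kg replicate 1 and Ighv1-64 without vehicle replicate 1 (adjusted p 0.0521 to 0.125 over both). Neither was called in the index fit or by limma-voom, and Ighg2b, whose groups overlapped, was not called on the 6 libraries alone. Variable segments are near copies of each other, and a few clones of plasma cells can carry a segment's level. Some T cell genes were higher. None of the T cell list was called lower, and its median log2 change was -0.03. Its summed level was 347 to 401 CPM in vehicle and 436 to 498 CPM at 30 µg/kg. Of 23 tested, 3 were called higher (13%, against 3.08% of all genes tested). These were Cd3g, part of the T cell receptor complex (log2 change 0.71, SE 0.12, adjusted p = 0.00478), Cd7 (0.71, SE 0.15, adjusted p = 0.013) and Gzmb, a cytotoxic granule protease (0.66, SE 0.17, adjusted p = 0.043). After the length and GC correction Cd7 and Gzmb were not called (adjusted p 0.0654 and 0.0944). Cd7 also lost its call without 30 µg/kg replicate 3 (adjusted p = 0.0545), and Gzmb without vehicle replicate 2 or 3 or 30 µg/kg replicate 1 or 3 (adjusted p 0.11 to 0.148) and in the index fit. An antisense gene, Gm11775, overlaps the exons of Cd7.

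Pancreatic acinar genes, which mark RNA of a neighbouring organ, also differed. Cela2a, an elastase, had 13 to 26 counts in the vehicle libraries and 0 in all 3 of 30 µg/kg, at least 4.94-fold lower when 3 counts are taken as the floor in each library. Pnlip, pancreatic lipase, had 20 to 28 counts in vehicle and 0 to 2 at 30 µg/kg, and Ctrb1 had 34 to 58 counts against 4 to 11. The other doses were low as well. Cela2a, Pnlip and Ctrb1 had 0, 0 and 0 to 2 counts at 3 µg/kg, and 2 to 5, 4 to 8 and 8 to 14 at 10 µg/kg. The low counts of these genes were thus not particular to 30 µg/kg. Summed over 7 acinar markers the level was 5.48 to 6.90 CPM in vehicle and 0.279 to 1.11 CPM at 30 µg/kg. Of the wider list of 20 acinar genes 7 were tested, 3 were called lower and 1 higher, and the median log2 change was -0.28. The summed level of that list, scaled by TMM unlike the marker sum, went the other way, at 18.1 to 24.4 CPM in vehicle and 28.6 to 44.0 CPM at 30 µg/kg. The gene called higher was Clps, colipase (log2 change 1.67, SE 0.35, adjusted p = 0.0153). Ctrb1 lost its call without vehicle replicate 2 or 3 or 30 µg/kg replicate 1 or 3, and Clps without vehicle replicate 3 or 30 µg/kg replicate 2 (adjusted p 0.0609 to 0.0785 over both).

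Lists of absorption, lipid metabolism and MHC class II genes gave few calls. Of all genes tested 3.97% were called in either direction, and lists of this size would hold few calls at that share. None was called by edgeR among 15 genes of sugar digestion and absorption (median -0.02, 4 with an unadjusted p under 0.05), 17 of amino acid and peptide transport (median -0.18, 4) and 12 brush border peptidases (median -0.30, 3). Nor was any among 7 genes of bile acid uptake (median 0.10, 0), 16 of the villus tip (median 0.14, 3) and 10 of MHC class II (median 0.04, 4). DESeq2 and limma-voom called 1 gene of these 6 lists, the proton-coupled amino acid transporter Slc36a1, named after its values were seen, whose log2 change by edgeR was -0.69 (SE 0.19, adjusted p = 0.0516). Fat absorption had 1 of 23 called (4.35%), the fatty acid carrier Cd36, with a log2 change of 0.89 (SE 0.22, adjusted p = 0.0343). Fatty acid oxidation had 1 of 27 (3.7%), the thiolase Acaa1b, with 1.10 (SE 0.30, adjusted p = 0.0466). Both lost their calls without vehicle replicate 2 or 3 or 30 µg/kg replicate 2 or 3 (adjusted p 0.0824 to 0.163 over both). Acaa1b, whose groups overlapped, was also not called after the length and GC correction (adjusted p = 0.0691), by limma-voom, in the index fit, on the 6 libraries alone or with genes over 1000 nt fitted alone, and the antisense gene Dlec1 overlaps its exons. Cholesterol synthesis had a median of 0.36 but 1 of 24 called (4.17%), the thiolase Acat2 (log2 change 0.75, SE 0.14, adjusted p = 0.00848), and 10 more had an unadjusted p under 0.05.

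Single calls came from several further lists. Reg4, a lectin among 20 inducible antimicrobial genes, had a log2 change of 0.87 (SE 0.20, adjusted p = 0.0243) that was lost after the length and GC correction (adjusted p = 0.0699), without any vehicle library and without 30 µg/kg replicate 2 or 3 (adjusted p 0.051 to 0.0902). Aqp4, a water channel of the colon list, had 1.00 (SE 0.25, adjusted p = 0.0327), lost on leaving out any 1 library (adjusted p 0.0549 to 0.0969). The vehicle libraries differed in clock genes, with Dbp at 1.07, 121 and 86.4 CPM and Arntl at 62.2, 5.93 and 7.36 CPM. The clock score, used as a covariate below, is the mean standardised level of genes grouped with Dbp minus that of genes grouped with Arntl. It was -1.95, 2.14 and 1.9 in vehicle and 1.74, 1.21 and -0.755 at 30 µg/kg. Of 20 clock genes Bhlhe41 was called, with a log2 change of -2.77 (SE 0.73, adjusted p = 0.0441) at 0.395, 1.94 and 1.84 CPM in vehicle. It lost its call without vehicle replicate 2 or 3 or any library of 30 µg/kg (adjusted p 0.0623 to 0.146), after the length and GC correction (adjusted p = 0.0512), by limma-voom and in the index fit, and the antisense gene Gm43909 overlaps its exons. Smooth muscle (14 tested, median -0.34), fibroblast (20, median -0.18) and liver genes (3, median 0.08) had none called by edgeR, DESeq2 or limma-voom, and 1, 0 and 0 had an unadjusted p under 0.05. Of 368 long intergenic noncoding RNA genes 9 were called higher (2.45%) and 2 lower (0.543%), with a median of -0.04. Both shares were below those of all genes tested, 3.08% and 0.891%.

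**Figure D5:**
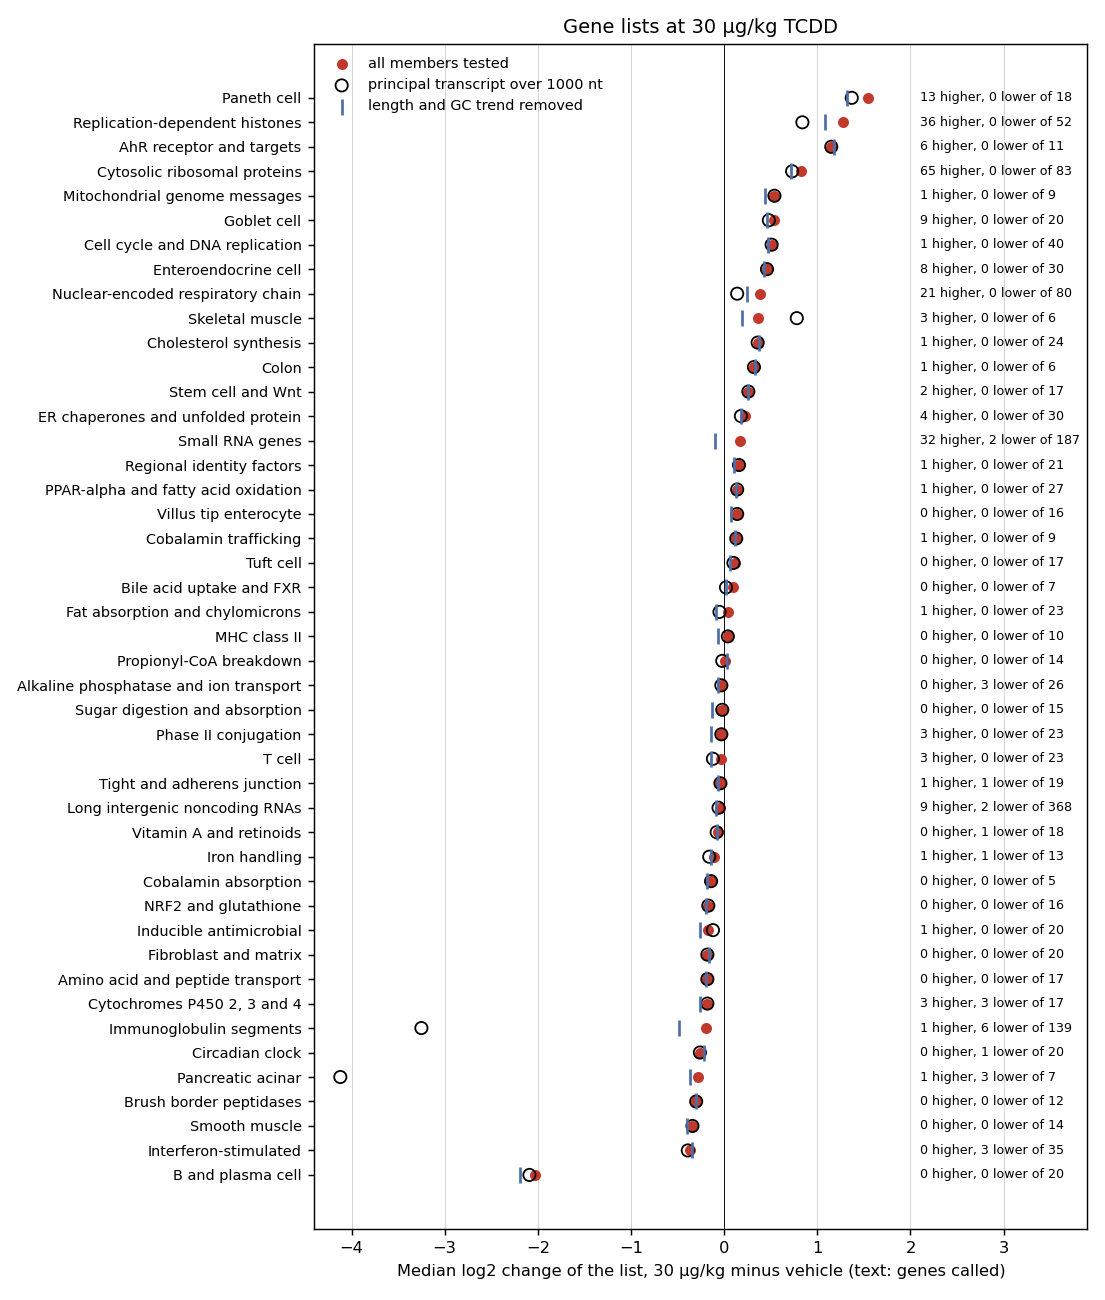
Median log2 change of each gene list with at least 5 genes tested, 30 µg/kg minus vehicle; filled circles are all members tested, open circles those with a principal transcript over 1000 nt, bars the values after the length and GC correction, and the text gives the genes called. Paneth, histone, AhR and ribosomal protein lists lie highest, and B and plasma cell genes lowest by all members.

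A direct test against 10 µg/kg asked which of these genes differed between the libraries of the 2 doses. Car1, the colon marker, was at 714 to 857 counts at 10 µg/kg and at 0 at 30 µg/kg, and the part of the position that was scraped in these differences was not tested. The test shares the 3 libraries of 30 µg/kg with the comparison above. Of 15823 genes 343 were called higher than at 10 µg/kg (2.17%) and 96 lower (0.607%). Cyp1b1 was at 48.1 CPM ± 3.71 (SD, n = 3) at 10 µg/kg and 103 ± 10.6 at 30 µg/kg, a log2 difference of 1.10 (SE 0.17, adjusted p = 0.00382). Differences of 0.94 (SE 0.18) for Ahrr, 0.74 (SE 0.14) for Tiparp, 0.85 (SE 0.17) for Ildr1 and 1.21 (SE 0.16) for Cuedc1 were also called. Cyp1a1 differed by 1.47 (SE 0.44) with an adjusted p of 0.0795, and Dgkh by 0.50 (SE 0.23, adjusted p = 0.236), so neither was called. The short class stood out here as well. Rpl41 was at 97.3 CPM ± 9.15 (SD, n = 3) at 10 µg/kg, close to vehicle, and differed by 1.73 (SE 0.09, adjusted p = 2.47e-06). For Defa22 the difference was 2.33 (SE 0.30, adjusted p = 0.000886), for Ang4 1.09 (SE 0.27, adjusted p = 0.0394) and for Lyz1 1.07 (SE 0.28, adjusted p = 0.0517). Among the falls, Zyg11a was called lower than at 10 µg/kg (log2 difference -1.01, SE 0.18, adjusted p = 0.00741). Cftr differed by -0.57 (SE 0.10, adjusted p = 0.00961), under the fold limit, and Akp3, Prr5l and Cubn were not called.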

How the data were processed

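RNA was sequenced in 12 libraries of scraped ileal epithelium, made with a NuGen Ovation mouse kit and an added DNase step. Per the submitters' processing notes, Trimmomatic 0.33, TopHat2 2.1.0, SAMtools 1.2.0 and HTSeq 0.6.1 were used with build GRCm38. The annotation release and strand setting are not given in the sources used here. The authors deposited raw counts per Ensembl gene, with no normalisation. Reads outside genes, in several genes or aligned to several places stand in separate entries, 60.29 to 64.57% of all entries per library, and were left out.

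Genes were counted as tested after filterByExpr (15823 of 46078, of which 17718 had no count). The filter used all 12 libraries. Car1 and Fabp6, near or at 0 counts in the 6 libraries compared, therefore counted as tested in their lists. edgeR 4.0.16 in R 4.3.3 fitted a quasi-likelihood model of 4 dose groups with TMM scaling, and p-values were adjusted by Benjamini-Hochberg over all genes tested. Gene names, positions and lengths came from an annotation of GRCm38 that matched 45229 identifiers. The script was tested on simulated data, where of 100 genes changed 2-fold 79% were recovered and of 100 changed 4-fold 99%, with 6 false calls among 15823 genes.

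Named genes were all members of the AhR list. Added were the 12 largest rises and 12 largest falls in protein-coding genes over 1000 nt of merged exon that were called, had a mean of at least 50 counts and did not overlap between groups, and the 6 largest rises at or under 1000 nt. In each of 46 lists, the first 2 members and up to 5 called members with the smallest adjusted p could also be named. Genes outside the rule are introduced as named after their values were seen. The members and lists were chosen with earlier results of these data known. The principal transcript as a measure of length was chosen after seeing the data. An exact permutation test of 3 against 3 libraries cannot go below p = 0.1 and was not used.

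A count of 3, the floor of detection, equals 0.139 to 0.267 CPM in the libraries compared, and covers counting error only. Alternatives were other scalings, filters, covariates, limma 3.58.1 (voom), DESeq2 1.42.0, a length and GC correction, other thresholds, and leaving out each library.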

Additional observations from a re-analysis of the deposited data

Results flagged for a closer look

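The entries for reads aligned to more than 1 place lie outside the gene counts. They made up 32.47 to 34.64% of all entries in vehicle and at least 36.25% (up to 38.79%) at 30 µg/kg, so the treated libraries lay above every control. The part of this difference in the gene-level results was not tested.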

How the results depend on the processing

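Genes called higher numbered 487 in all and 362 to 435 with 1 library left out, and 337 and 255 to 300 over 1000 nt. Genes called lower numbered 141 and, with 1 library left out, 67 to 220, and 127 and 58 to 204 over 1000 nt. The total was 628 against 433 to 655 and, over 1000 nt, 464 against 313 to 504. With DESeq2, the clock score as a covariate, the index sequence as a covariate and no low-count filter, the falls were 233, 251, 91 and 241, and over 1000 nt 210, 228, 80 and 211. By adjusted p alone the total was 967 (287 lower), and over 1000 nt 790 (518 higher, 272 lower). At 2-fold or more it was 314 (245 higher, 69 lower), and over 1000 nt 197 (141 higher, 56 lower). Over 2000 nt of merged exon 215 rises were called. Against 10 µg/kg, 439 genes (343 higher, 96 lower) became 283 with the length and GC trend removed (198 higher), and falls became 148 with the clock score. With 1 library left out that total was 188 to 348, with 157 to 257 higher and 31 to 101 lower. Leaving out 1 library moved Cyp1a2 from -0.07 (without vehicle replicate 3) to 0.78 (without vehicle replicate 2). Alpi was at -0.08 with the length and GC trend removed, 0.00 with limma-voom and -0.01 with upper-quartile scaling, and -0.07 to 0.14 with 1 library left out, the ends being 30 µg/kg replicates 2 and 3. The cause of these differences was not tested. The principal transcript as the measure of length was added after seeing the data. No paired analysis was possible because the labels carry no replicate numbers. The index fit above is an additive block over the 3 index sequences, which recur in every dose group but are not said to mark shared animals or days.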
